A study of Nannochloropsis oceanica with 18 samples.

Results

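Weakly acetylated interior regions are the chromatin regions of Nannochloropsis oceanica IMET1 in which acetylation of histone H3 lysine 27 (H3K27ac) was above the local background in nitrogen-replete cells, but by less than 2 times. They were chosen from 3803 regions with values for 3 chromatin marks by a width of 1000 to 11999 bp, a distance of at least 50000 bp from both ends of the values on a chromosome, and a mean H3K27ac ratio of at least 1 and under 2 in replete cells. This ratio is the coverage (pileup) of immunoprecipitated fragments over a region divided by the local background (lambda) given beside it. In total, 274 of the 3803 regions met these limits, out of 2404 that met the width and position limits. The remaining interior regions served for comparison, of which 566 had a ratio under 1 (acetylation-poor) and 1564 a ratio of at least 2 (strongly acetylated).

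This alga was grown by the study in f/2 medium. Cells of the strain IMET1, with no transgene named in the labels, were taken in nitrogen-replete logarithmic growth, called C0, or following culture in medium without nitrogen, which lasted 1 day for N1 and 2 days for N2. Chromatin immunoprecipitation sequencing (ChIP-seq) was carried out for H3K27ac, lysine crotonylation (Kcr) and dimethylation of histone H3 lysine 36 (H3K36me2), with 2 libraries labelled for each of the 9 combinations of mark and condition. N1 and N2 cells were moreover washed and moved to new culture, and received less light than the C0 culture, such that nitrogen, transfer and light cannot be told apart in any comparison with C0. The labels name other antibodies than the methods of the study, and give 1 catalogue number for both H3K27ac and H3K36me2, so that a mark is named here as its library was labelled.

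As background, H3K27ac is placed by histone acetyltransferases and is found in plants, animals and algae at the promoters and regulatory elements of active genes. Crotonylation attaches a related short acyl group, drawn from crotonyl-CoA, to lysines that can also be acetylated, and in mammals the same p300 enzyme can place both. H3K36me2 is placed in yeast by Set2 over transcribed genes, and in mammals by NSD enzymes over broad domains that extend beyond genes. Nannochloropsis species divert carbon to triacylglycerol when nitrogen runs out, which is the setting in which these marks were compared. No gene was assigned to any region here, and regions are named by chromosome, start and end as the deposited values give them, on the N. oceanica genome; the study gives a version of it for its contact maps, but none for ChIP-seq.

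The values of both libraries were identical for H3K36me2 in C0 and for Kcr in N2, and each such pair entered once. Among the other 7 pairs, log2 ratios correlated over the 274 regions at r = 0.846 to 0.964. The study calls its ChIP-seq replicates biological, but the labels do not tie these libraries to separate cultures, so that the tests below compare libraries and the spread behind each p-value may be technical. The pileup rises in steps, and the inverse of a step, which stands for depth where 1 step is 1 fragment, was 1.86 to 7.29 M. The step for H3K36me2 in C0 was 2 fragments wide by the depth the study lists for replicate 1, which doubles pileup and background alike and leaves their ratio as it is. The median pileup of a member was 69 to 231 steps per library and the lowest was 14, so that ratios well under 1 rest on few fragments. Within a condition, the background was nearly the same for all 3 marks, with r = 0.985 to 1.000 over the members, and the ratios of different marks therefore share their denominator.

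The weakly acetylated regions were narrow and scattered. Their median width was 1885 bp (range 1001 to 11742 bp), against 2028 bp for acetylation-poor and 4246 bp for strongly acetylated regions, and 112 of them, or 40.9%, were under 1500 bp wide. They were found on all 30 chromosomes, where they made up 4.17% (chromosome 27) to 20.3% (chromosome 16) of the interior regions that met the width limits. Most stood alone, with 233 having no other member next to them, while 16 pairs and 3 runs of 3 neighbours held the rest. In 106 cases a member lay between an acetylation-poor region on one side and a strongly acetylated region on the other. Strong regions flanked 88 members on both sides, and poor regions 28. In the same order, these counts were 1153, 1456 and 324 of all 3803 regions. They were 559, 566 and 163 of the 1564 strong regions, and 111, 296 and 13 of the 566 poor ones. In these counts of neighbours, a region of any width was called poor or strong by the same ratios. A strong neighbour was found on 58.0% of the sides of members, close to the 59.8% for strongly acetylated regions and below the 71.6% for poor ones.

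The rule placed the mean H3K27ac ratio in C0 between 1.02 and 2.00, with a median of 1.63. Of the 274 members, 237 had both C0 libraries within the limits, 31 had 1 library at 2 or above, and 6 had 1 library under 1. Just inside the lower limit were chr10:1089080-1091992 at 1.02 and chr17:595773-598322 at 1.03, and just outside it chr22:83434-86943 at 0.997 and chr2:236780-238333 at 0.986. Just inside the upper limit were chr10:1189385-1190565 at 1.999 and chr13:923670-924860 at 1.99, and just outside it chr3:987021-995410 at 2.001 and chr21:178306-180474 at 2.002. These values chose the members and are given as a description.

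**Figure D1:**
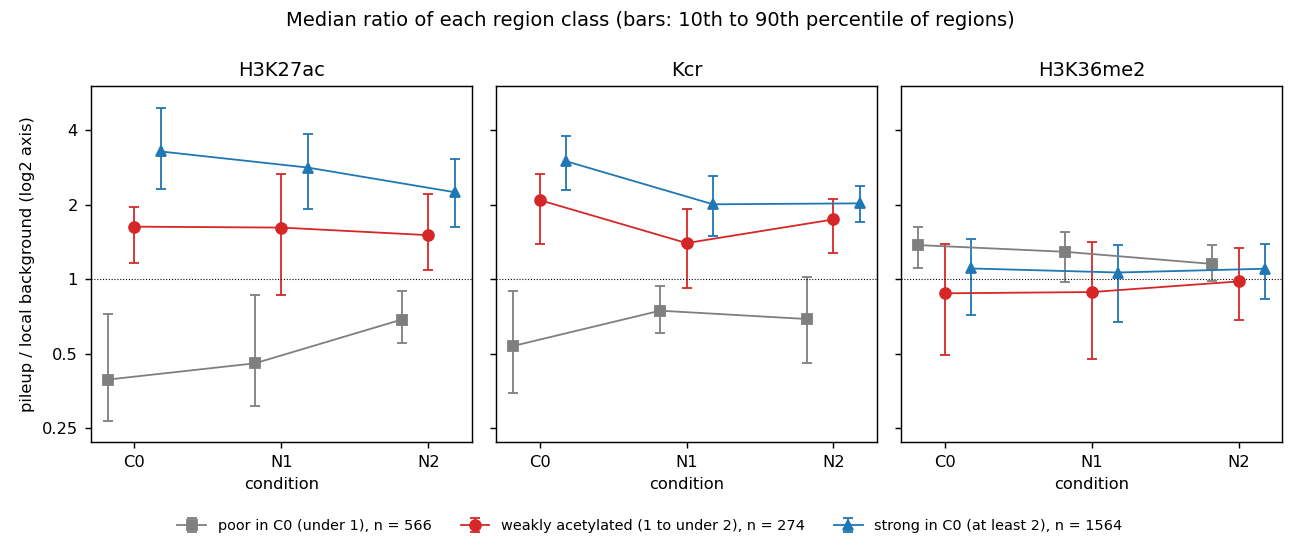
Median ratio of pileup to local background (log2 axis) for H3K27ac, Kcr and H3K36me2 in C0, N1 and N2, for regions that were acetylation-poor (566), weakly acetylated (274) or strongly acetylated (1564) in C0, with bars from the 10th to the 90th percentile of regions. The weakly acetylated regions lie between the other classes for H3K27ac and Kcr, and have the lowest median H3K36me2 of the 3 classes in every condition.

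In replete cells, crotonylation was higher than acetylation in most of these regions. The median Kcr ratio in C0 was 2.09, against 1.63 for H3K27ac, and Kcr exceeded H3K27ac in 233 of 274 members. In 209 members both Kcr libraries were above both H3K27ac libraries, and in 31 members both were below. These counts by library were made for the members only, with no share over all regions beside them. A ratio of at least 2, the upper limit of the rule for H3K27ac, was reached by Kcr in 160 members, and 14 members had a Kcr ratio under 1. Strongly acetylated regions had the opposite order, with Kcr above H3K27ac in 517 of 1564 and medians of 2.99 and 3.28. Acetylation-poor regions had the same order as the members, 490 of 566, at medians of 0.54 and 0.39. Since regions were chosen on H3K27ac and not on Kcr, and both marks were scaled separately, this order is a description and was not tested.

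The members differed from each other in crotonylation more than their narrow range of acetylation would show. The highest Kcr ratio in C0 was in chr13:737643-738830, at 3.29 and 3.55 in its libraries, followed by chr23:471880-474174 at a mean of 3.26 and chr5:865973-867326 at 3.13. Their H3K27ac ratios in C0 were 1.85, 1.88 and 1.90. The lowest Kcr was in chr10:515288-517692, at 0.56 and 0.40, followed by chr23:434971-436257 at 0.62 and chr5:466083-468738 at 0.65. These last 3 had H3K27ac ratios of 1.07, 1.12 and 1.10, near the lower limit, and H3K36me2 ratios of 1.42, 1.13 and 1.51, above the member median. Over the 274 members, log2 Kcr and log2 H3K27ac in C0 correlated at r = 0.53, a value that the limits on H3K27ac restrict and to which the shared background contributes.

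H3K36me2 was low in the members. Its median ratio in C0 was 0.88, compared to 1.37 in acetylation-poor and 1.10 in strongly acetylated regions, and it was under 1 in 165 of 274 members (60.2%), 6.36% of poor regions and 38.2% of strong regions. No member reached a ratio of 2 in any condition. Over the members in C0, H3K36me2 correlated with H3K27ac at r = 0.01 and with Kcr at r = 0.10. The rule limits the range of H3K27ac in C0, so that the first value cannot tell whether these marks are related. H3K36me2 did follow width, with r on log2 scales of 0.58 for C0, 0.61 for N1 and 0.51 for N2. In C0 the median H3K36me2 ratio was 0.70 in the 112 members of 1000 to 1499 bp, 0.76 in the 30 of 1500 to 1999 bp and 0.97 in the 41 of 2000 to 2999 bp. It was 1.15 in the 56 of 3000 to 4999 bp and 1.27 in the 35 of 5000 bp or more. The median was thus under the background level in the 3 narrower bins and above it in the 2 wider ones.

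Strongly acetylated regions had nearly the same profile by width, with medians of 0.79, 0.84, 1.02, 1.13 and 1.24 in the same bins, whereas acetylation-poor regions stayed between 1.32 and 1.42. The low H3K36me2 of the members was therefore found in strong regions of the same width as well, and within a bin the medians of members and strong regions differed by -0.09 to 0.02 (members minus strong, ratio scale). How far the width of a region sets its value was not tested. The lowest H3K36me2 in C0 was in chr19:463211-464905 (1695 bp) at 0.16, followed by chr7:1234940-1236597 (1658 bp) at 0.17 and chr1:1487084-1488302 (1219 bp) at 0.23. The highest was in chr5:345903-353560 (7658 bp) at 1.75, followed by chr2:1561591-1570988 (9398 bp) at 1.64 and chr26:278726-281911 (3186 bp) at 1.63.

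**Figure D2:**
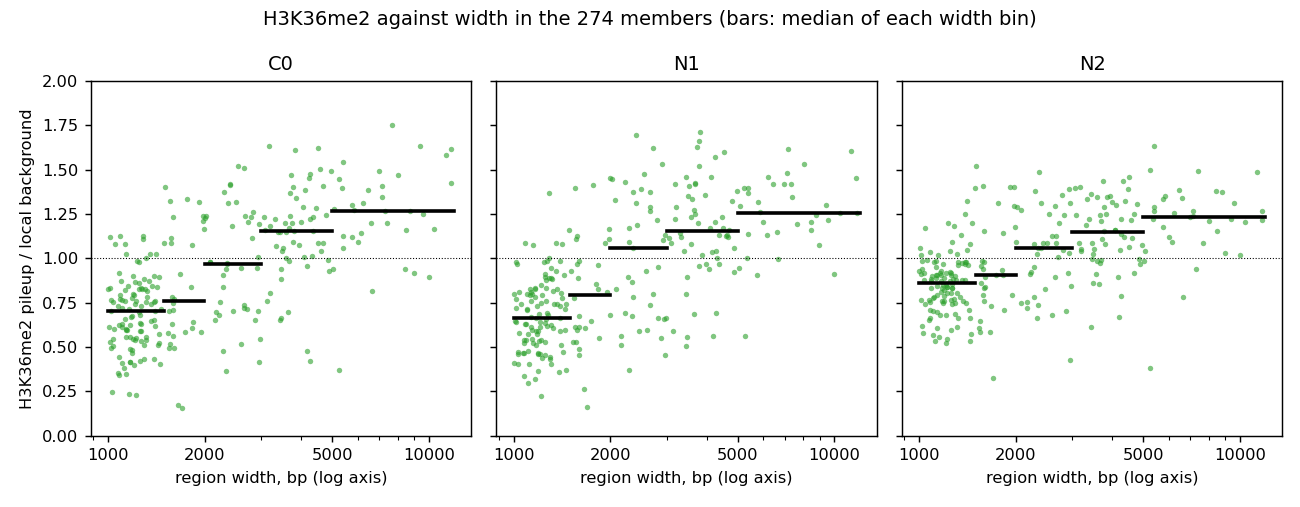
H3K36me2 ratio (y axis) against region width in bp (log axis) for each of the 274 members in C0, N1 and N2, with black bars at the median of each width bin. The median of the narrowest bin was 0.70 in C0 and 0.86 in N2, while that of the widest was 1.27 and 1.23, so that the range between the bins was smaller in N2.

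The median H3K27ac ratio of the members was 1.62 in N1 (1.62 and 1.58 in its libraries) and 1.51 in N2 (1.50 and 1.53), against 1.63 in C0. On the log2 scale, the median difference from C0 was -0.00 in N1 and -0.06 in N2, with 137 of 274 members below their C0 value in N1 and 158 in N2. These differences use the values that chose the members and were not tested. They also depend on the scale, since the median difference was 0.17 in N1 and 0.38 in N2 when the median of all regions was set to be the same in each library, a step hereafter called centring. The ratios ranged from 0.37 to 7.21 in N1 and from 0.75 to 3.45 in N2. Since the rule had limited the range in C0, a wider range afterwards follows from the choice of members, and over all 3803 regions the SD of the log2 ratio was 1.41, 1.25 and 0.87 for C0, N1 and N2. In N1, 86 members were at 2 or above and 42 were under 1. In N2, 42 were at 2 or above and 17 under 1.

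A total of 34 members were at an H3K27ac ratio of 2 or above in both N1 and N2, 10 were under 1 in both, and 131 stayed between 1 and 2 in both. The 34 had median Kcr ratios of 1.99, 1.84 and 1.97 in the order C0, N1, N2, and the 10 had 1.46, 0.88 and 1.04. In the 131, the medians of Kcr were 2.17, 1.34 and 1.71. The 10 members also had a median H3K36me2 of 1.22, 1.40 and 1.19, against 0.95, 0.92 and 1.06 in the 34. These groups were formed from H3K27ac values and, through the background, share the denominator of the other marks.

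Some members had far more acetylation in deprived cells. The H3K27ac ratio of chr29:493048-496620 was 1.66 and 1.76 in the libraries of C0, against 8.39 and 6.04 in N1 and then 3.17 and 3.74 in N2. That of chr19:635808-637802 was 1.23 and 1.12 in C0, 6.52 and 5.98 in N1, and 2.39 and 2.33 in N2. In chr7:1267983-1271124 it was 1.29 and 1.12, 3.11 and 3.48, and 2.31 and 2.20. In these 3 regions every library of deprived cells was above every library of C0, and each N2 library was below each N1 library. The same held for chr20:207013-208841, where ratios of 1.19 and 1.03 in C0 were followed by 2.998 and 2.78 in N1 and 2.28 and 2.67 in N2. There the difference of N2 from N1 was not called in limma (adjusted p = 0.1083). All 4 regions were picked by their difference from C0, whose values also chose the members. Their order against C0 is therefore a description and was not tested.

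Other members had their lowest H3K27ac in N1 and more in N2. The H3K27ac ratio of chr10:693745-695746 was 1.46 and 1.51 in C0, 0.40 and 0.35 in N1, and 1.22 and 1.36 in N2. That of chr17:595773-598322 was 1.02 and 1.03, then 0.42 and 0.41, then 1.06 and 1.16. In chr7:1029267-1031249 the means were 1.15, 0.40 and 0.85, so that N2 was still under the background level there. Both N1 libraries were the lowest of the 6 in each of these regions. As these regions were likewise picked by their difference from C0, their order against C0 was not tested. Ratios under 1 in N2 were also found in chr4:1302735-1306423, with means of 1.62, 0.68 and 0.89, and in chr15:354132-359095, with 1.86, 1.39 and 0.75.

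**Figure D3:**
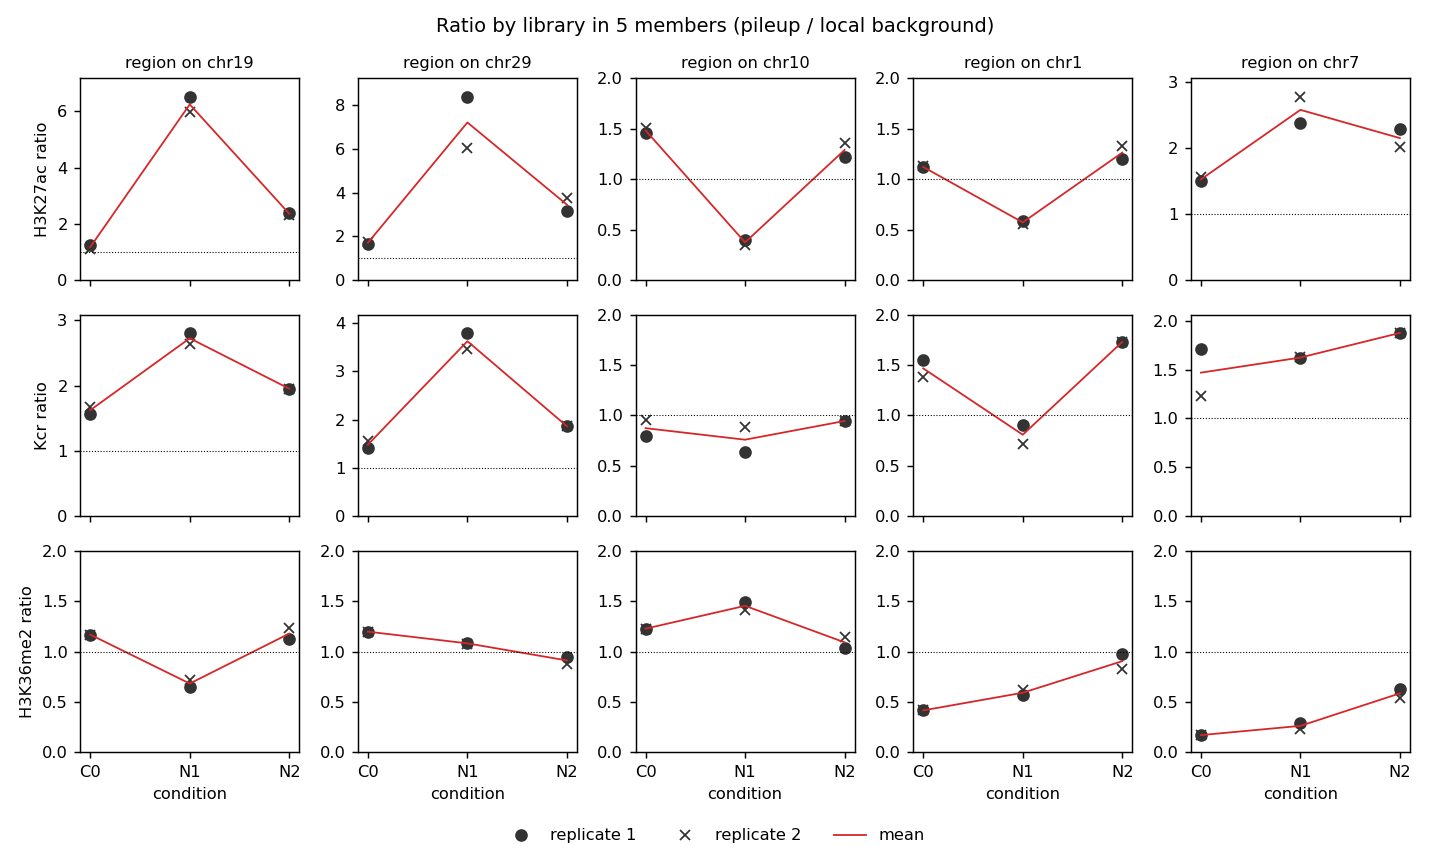
Ratio of pileup to local background in each library (circle, replicate 1; cross, replicate 2) and its mean (line) for H3K27ac, Kcr and H3K36me2 in 5 members, named by chromosome (chr19:635808-637802, chr29:493048-496620, chr10:693745-695746, chr1:632829-634002 and chr7:1234940-1236597), with axes that start at 0 and differ between panels. The first pair peaked in N1 for both acyl marks, the regions on chromosomes 10 and 1 had their lowest H3K27ac in N1, and the region on chromosome 7 had its highest H3K36me2 in N2.

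The difference of N2 from N1 holds no C0 value, although the C0 libraries that chose the members enter the estimate of spread behind each call. It shows which regions changed between the first and the second day without nitrogen. H3K27ac was called in limma at an adjusted p under 0.05 as higher in N2 in 53 members and as lower in 85. Over all 3803 regions, 19.6% were called higher and 41.7% lower, so that the share of members called higher (19.3%) was near the background and the share called lower (31.0%) was below it. The split reversed with the scale: after centring, 100 members were higher and 30 lower, and with medians and spreads made equal 89 and 33. After centring these were 36.5% and 10.9% of members, against 36.3% and 15.4% of all regions. With medians and spreads made equal they were 32.5% and 12.0%, against 32.1% and 11.9% of all regions. Centring moved the median difference of all regions from -0.14 to 0.13, and that of the members from -0.08 to 0.19. The members were above all regions by 0.06 on both scales, since centring moves every region alike. With equal medians and spreads the members were at -0.01 relative to all regions.

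The largest rise from N1 to N2 was 1.72 ± 0.17 (log2 difference ± standard error, adjusted p = 4.17e-07) in chr10:693745-695746, followed by 1.38 ± 0.18 in chr17:595773-598322, 1.15 in chr16:229982-233182 and 1.12 in chr1:632829-634002. The largest fall was in chr19:635808-637802, at -1.39 ± 0.09 (adjusted p = 1.54e-08). It was followed by chr21:633012-635890 at -1.07, and by chr21:775792-778752 and chr29:493048-496620, each at -1.04. All 8 kept their direction and call under each alternative of scale and library that was run, and 7 of them with low values removed, where chr10:693745-695746 was not tested. The regions that fell most therefore included those in which the ratio in N1 was highest.

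Before centring, the Kcr ratio was lower after 1 day in most members. Kcr in N1 was lower than in C0 in 206 members and higher in 11, with a median log2 difference of -0.55. Over all regions 64.1% were called lower and 16.4% higher, and the median difference was -0.43. The background of C0 is shared with the values that chose the members. The direction of the split rests on the scale: after centring, 55 members were lower and 74 higher, and once medians and spreads were equal 41 and 84. Centring brought the median of all regions to 0.16 and that of the members to 0.04. The median of the members minus that of all regions was -0.12 on both scales, since centring moves every region alike. With equal medians and spreads it was -0.06. Before centring, the acetylation-poor regions had a median of 0.46 and the strongly acetylated regions -0.58.

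The fall was largest in chr4:1302735-1306423, whose Kcr ratio was 3.17 and 2.90 in C0 and 0.84 and 1.00 in N1 (log2 difference -1.70 ± 0.13, adjusted p = 1.11e-11). In N2 it was 1.37. In chr13:737643-738830, the member with the most Kcr in C0, the ratio went from 3.29 and 3.55 to 1.29 and 1.26 (-1.40 ± 0.10). In chr13:873297-874567 and chr5:745559-746613 the difference was -1.46 and -1.39. The 4 members that rose most were chr29:493048-496620, with 1.40 and 1.56 in C0 and 3.79 and 3.45 in N1 (1.27 ± 0.10, adjusted p = 2.37e-11), chr21:775792-778752 (0.98 ± 0.11), chr2:1525056-1526128 (0.89 ± 0.18) and chr10:515288-517692 (0.83 ± 0.20). The first pair are among the members whose H3K27ac ratio was also highest in N1, at 7.21 and 4.19.

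**Figure D4:**
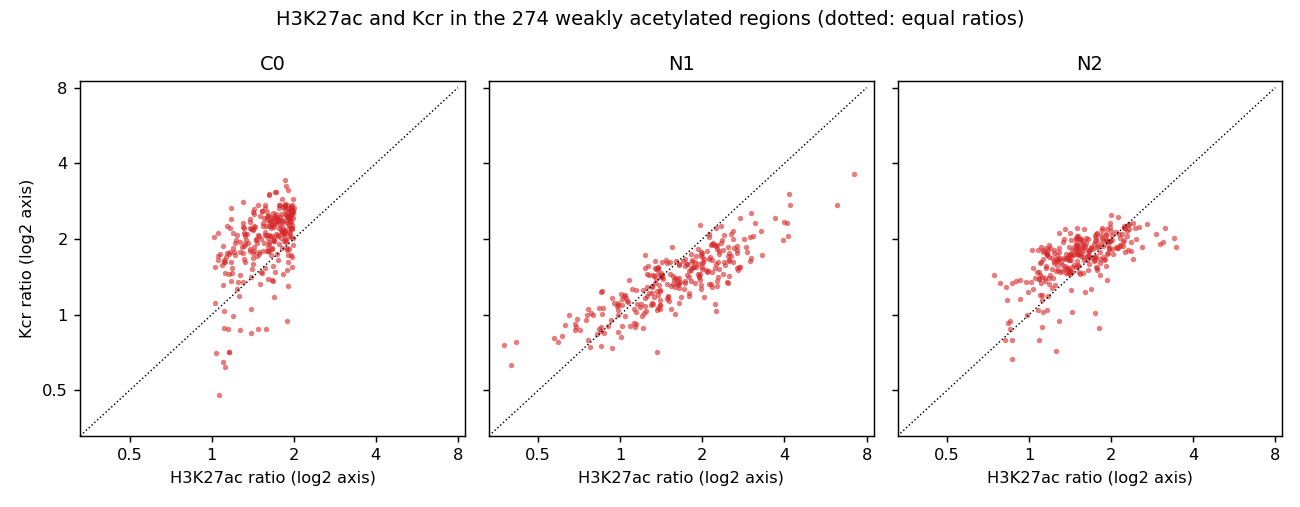
Kcr ratio against H3K27ac ratio (both log2 axes) for each of the 274 members in C0, N1 and N2, with a dotted line where they are equal. Kcr was the higher mark in 233, 75 and 189 members in that order, and the correlation of the log2 ratios was 0.53, 0.85 and 0.64.

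The order of the acyl marks differed between conditions. Kcr was above H3K27ac in 85.0% of members in C0, 27.4% in N1 and 69.0% in N2, against 51.1%, 30.7% and 37.4% of all regions. In strong regions the shares were 33.1%, 3.71% and 29.0%, also lowest in N1. Poor regions went the other way, at 86.6%, 91.9% and 45.4%, with their highest share in N1. The limit of the rule on H3K27ac bears on the share in C0, and each mark has its own scale. In N1, Kcr was the higher in 75 of 274 members, and both Kcr libraries were above both H3K27ac libraries in 35, compared to below in 151. In N2 Kcr was the higher in 189 members. Its identical libraries, which hold 1 set of values, were above both H3K27ac libraries in 166 members and below both in 61. The counts by library were again made for the members only. Median Kcr was 1.40 in N1 and 1.74 in N2. In N1 the log2 ratios of both marks correlated at r = 0.85 over the members, and H3K27ac was the more spread, with an SD of 0.66 against 0.41.

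Kcr rose in a part of the members between N1 and N2. In N2 it was called higher than in N1 in 94 members (34.3%) and lower in 7 (2.55%), compared to 11.4% and 7.47% of all regions. The median difference was 0.25 in the members, 0.01 over all regions, 0.01 in strong and -0.12 in poor regions. The strong regions were called higher in 182 and lower in 152 of 1564, and the poor regions in 14 and 20 of 566. After centring the members were 65 higher and 14 lower, against 5.92% and 17.2% of all regions. Once medians and spreads were equal they were 66 and 44, against 12.5% and 37.0% of all regions. With the pileup alone 245 were higher and 0 lower, against 53.8% and 0.24% of all regions, so that most regions rose on that scale. The direction of the split was thus the same on each scale, but its size was not. The libraries of Kcr in N2 were identical and entered once, so that their spread was taken from the other conditions.

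Kcr went from a mean of 0.81 in N1 to 1.73 in N2 in chr1:632829-634002 (log2 difference 1.08 ± 0.19, adjusted p = 2.97e-04), with 1.55 and 1.38 in C0. In chr18:253962-255109 the ratio was 1.90 and 1.69 in C0, 0.91 and 0.89 in N1 and 1.88 in N2 (1.05 ± 0.17), and in chr10:81485-82790 and chr23:169989-171434 the difference was 1.04 and 0.98. All 4 are under 1500 bp wide and had their lowest Kcr in N1. Of the 94 members called higher, 48 were under 1500 bp, as were 40.9% of all members. The 4 largest falls were in chr29:493048-496620 (-0.94 ± 0.12), chr16:911013-914738 (-0.67 ± 0.19), chr2:1536632-1540894 (-0.67 ± 0.23, adjusted p = 0.0418) and chr21:775792-778752 (-0.62 ± 0.13). With the pileup alone none of these 4 was called, and the difference in chr21:775792-778752 was 0.15.

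Both acyl marks were called higher in N2 than in N1 in 38 members, and both lower in 5. The marks share their background, so that these counts are not independent. The joint share over all regions was not counted, so that the counts cannot be read as particular to the members. The largest joint rises were in chr1:632829-634002 (H3K27ac 1.12, Kcr 1.08), chr18:253962-255109 (1.07 and 1.05) and chr7:250401-251415, where H3K27ac went from a mean of 0.68 to 1.30 and Kcr from 0.87 to 1.67. The largest joint falls were in the regions named above on chromosomes 29, 19 and 21. In chr19:635808-637802, Kcr was 1.57 and 1.68 in C0, 2.81 and 2.64 in N1 and 1.95 in N2, while H3K36me2 was 1.17 in C0, 0.65 and 0.72 in N1 and 1.12 and 1.23 in N2. H3K36me2 was thus lowest there in the condition in which both acyl marks were highest. This was not so in the other joint falls named. In C0, N1 and N2, mean H3K36me2 was 1.20, 1.08 and 0.91 in chr29:493048-496620. It was 0.41, 0.45 and 0.43 in chr21:775792-778752.

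Compared with C0, Kcr in N2 was lower in 109 members and higher in 11, with a median difference of -0.24. Over all regions 56.1% were called lower and 7.52% higher, at a median of -0.38. Here too, the background of C0 is shared with the values that chose the members. After centring 10 members were lower and 83 higher, or 34 and 79 with medians and spreads made equal, so that this split reversed as well. The shares of all regions were 13.9% lower and 27.5% higher after centring, and 15.4% and 14.9% with medians and spreads made equal. With the pileup alone 72 members were lower and 27 higher, against 40.3% and 11.4% of all regions. Among all regions, centring moved the median to 0.08. The largest falls were in chr4:1302735-1306423 (-1.13 ± 0.16), chr19:625474-627301 (-0.99), chr16:71877-74600 (-0.94) and chr2:619597-620747 (-0.91). The largest rise was in chr2:1525056-1526128, whose Kcr ratio was 0.58 and 0.84 in C0, 1.17 and 1.47 in N1 and 1.44 in N2 (1.02 ± 0.22, adjusted p = 1.63e-04). It was followed by chr8:788625-789937 (0.59 ± 0.15), chr23:434971-436257 (0.58 ± 0.24) and chr1:510469-512235 (0.56 ± 0.24). The calls of the last pair were lost when 1 C0 library was left out, replicate 2 for the former (difference 0.31) and replicate 1 for the latter (0.27).

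**Figure D5:**
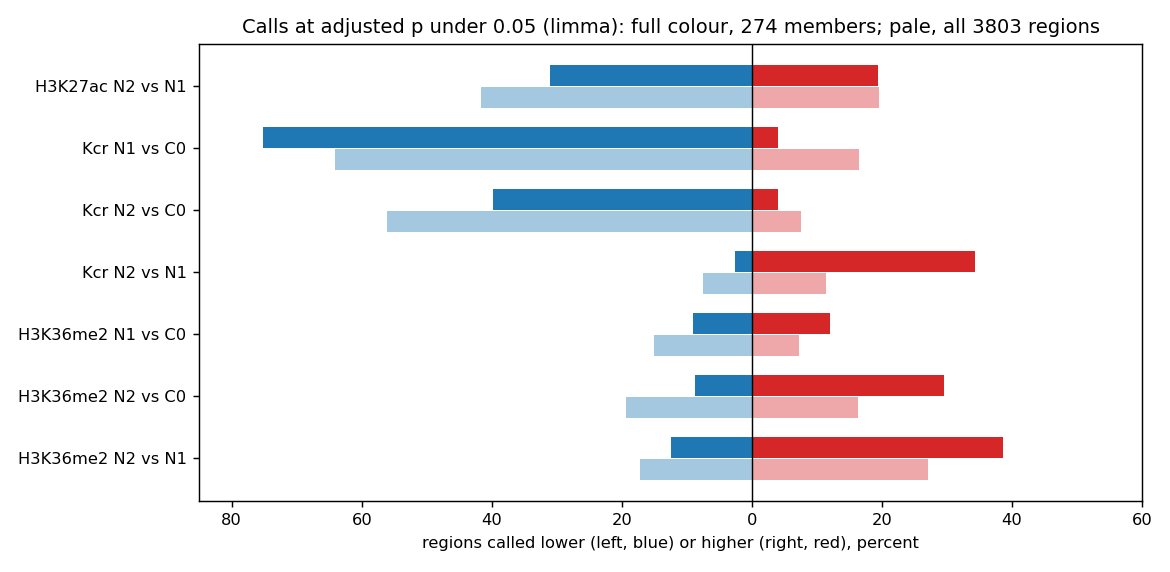
Share of regions called lower (blue, left) or higher (red, right) at an adjusted p under 0.05 in limma, in percent, for the 274 members (full colour) and all 3803 regions (pale) in 7 comparisons. Members were called higher more often than all regions for Kcr in N2 against N1 (34.3% and 11.4%) and for H3K36me2 in N2 against C0 (29.6% and 16.3%) and N1 (38.7% and 27.1%). The bars carry no test of this difference, and comparisons with C0 share the background of the values that chose the members.

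In N1 the median H3K36me2 ratio was 0.89, and 33 members were called higher and 25 lower than in C0, compared to 7.23% and 15.1% of all regions, with a median difference of -0.00. With equal medians and spreads these counts were 17 and 6. The pileup alone gave 0 higher and 267 lower, but 98.6% of all regions were also lower on that scale. With the C0 values halved, the pileup alone gave 26 and 8 members, and the share of all regions is not given here. On the ratio scale, 20 members were higher and 13 lower without replicate 1 of N1, and 16 were higher without replicate 2 of N1. As for Kcr, the background of C0 is shared with the values that chose the members. The largest rise was in chr10:696520-698854, from 0.37 in C0 to 0.83 and 0.91 in N1 (1.22 ± 0.17, adjusted p = 2.02e-07), and the largest fall in chr10:1127262-1128262, from 0.83 to 0.44 and 0.38 (-0.97 ± 0.17). The former lies 773 bp from chr10:693745-695746, the member with the largest fall of H3K27ac in N1. Further rises were 0.90 in chr27:582239-584466, 0.77 in chr21:74947-77610 and 0.70 in chr29:460587-461617. These 4 rises were, by the pileup alone and C0 not halved, -0.04, -0.46, -0.51 and -0.26, in the order named. Further falls were -0.90 in chr4:1156858-1159683, -0.75 in chr19:635808-637802 and -0.64 in chr3:1362271-1363519.

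Between N1 and N2, H3K36me2 was called higher in 106 members (38.7%) and lower in 34 (12.4%), with a median difference of 0.18. Over all regions 27.1% were higher and 17.2% lower, at a median of 0.05. After centring the members were 116 and 31, and 87 and 31 once medians and spreads were equal. With the pileup alone they were 187 and 5, against 53.0% and 2.52% of all regions. More members thus rose than fell on each scale, but with the pileup alone so did all regions. Without replicate 2 of N1, 20 were lower. When regions up to the 10th percentile of pileup or background were removed, 198 members were left, of which 63 were higher and 24 lower.

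The rise was more frequent in the narrow members. Of the 112 under 1500 bp, 61 were higher and 4 lower, of the 30 of 1500 to 1999 bp 15 and 2, and of the 41 of 2000 to 2999 bp 15 and 8. Of the 56 of 3000 to 4999 bp, 12 were higher and 13 lower, and of the 35 of 5000 bp or more 3 and 7. Strongly acetylated regions had a like course, from 60.8% higher and 0.76% lower under 1500 bp to 17.5% and 16.4% at 5000 bp or more. Acetylation-poor regions under 1500 bp were 17.0% higher and 33.3% lower. The rise in narrow regions was thus shared with the strong regions of that width, and its relation to the low starting level of H3K36me2 in the same regions was not tested.

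The largest rise from N1 to N2 was in chr19:237710-239098, from 0.32 and 0.40 to 1.04 and 0.90 (1.38 ± 0.15, adjusted p = 7.05e-11), with 0.43 in C0. It was followed by chr1:1487084-1488302, from 0.22 and 0.23 to 0.59 and 0.51 (1.22 ± 0.18), chr10:1127262-1128262 (1.13) and chr7:1234940-1236597 (1.08). All 4 were picked among members whose libraries do not overlap, so that both N2 libraries lie above both N1 libraries by choice. The ratio in N2 was still at or under about 1 in each. The largest falls were in chr2:619597-620747, from 1.07 in both libraries to 0.53 and 0.58 (-0.92 ± 0.12), chr19:605862-607298 (-0.74), chr10:1089080-1091992 (-0.72) and chr10:515288-517692 (-0.67).

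Against C0, H3K36me2 in N2 was higher in 81 members and lower in 24, with a median difference of 0.16 and a median ratio of 0.98. Over all regions 16.3% were called higher and 19.4% lower, at a median of -0.01. The C0 background in this comparison is likewise shared with the values that chose the members. The poor regions were 24 higher and 242 lower, and the strong regions 259 and 187. After centring the members were 105 and 12, or 60 and 8 with medians and spreads made equal. The pileup alone gave 6 higher and 204 lower, against 1.03% and 86.2% of all regions. It gave 186 and 0 members once the C0 values, whose step is 2 fragments wide, were halved. The share of all regions with C0 halved is not given here. After the removal of low values 47 of 198 were higher. The number lower was 15 without replicate 1 of N1, 14 without replicate 2 of N1 and 15 without replicate 2 of N2. The largest rise was in chr7:1234940-1236597, from 0.17 in C0 to 0.63 and 0.54 in N2 (1.71 ± 0.22, adjusted p = 1.80e-08), with 0.29 and 0.24 in N1.

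Further large rises were in chr13:892049-893213, from 0.23 to 0.67 and 0.70 (1.50 ± 0.20), chr1:1487084-1488302 (1.22 ± 0.22) and chr29:460587-461617 (1.19 ± 0.20). The widest of the 4 that fell most, chr5:345903-353560, had the highest ratio in C0, 1.75, with 1.24 and 1.15 in N1 and 1.07 and 1.10 in N2 (-0.68 ± 0.12). The other 3 were chr2:619597-620747 (-0.59), chr7:931819-933107 (-0.52) and chr15:354132-359095 (-0.48). The named rises thus began from low values in C0, but they were also ranked by their difference from C0. The SD of log2 H3K36me2 over the members was 0.61 in C0 and N1 and 0.38 in N2. Over all regions it was 0.53, 0.51 and 0.33 in C0, N1 and N2, so that the smaller spread in N2 was not particular to the members. As only 1 set of values was used for C0, its spread was taken from N1 and N2.

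Of the 3 runs of 3 neighbouring members, that on chromosome 2 (1525056 to 1540894) had H3K36me2 ratios in C0 of 0.35, 1.12 and 1.48 from one end to the other, and Kcr ratios of 0.71, 1.46 and 0.84. In N1 the first of them had an H3K27ac ratio of 2.11 and the last 1.05. On chromosome 7 (1195095 to 1236597), H3K36me2 was 0.42, 0.58 and 0.17 in C0 and 0.79, 0.61 and 0.59 in N2, and the last member reached an H3K27ac ratio of 2.58 in N1. On chromosome 16 (206294 to 233182), Kcr was 2.13, 2.20 and 1.26 in C0, 1.39, 1.33 and 0.87 in N1, and 2.49, 1.57 and 1.23 in N2. All 3 members on chromosome 16 thus had their lowest Kcr in N1, while the members of the other runs differed in their H3K36me2.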

How the data were processed

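Per the study's methods and the submitters' notes, reads were trimmed with Trim Galore, aligned with BWA to the N. oceanica genome, marked for duplicates with Picard and analysed with deepTools and MACS2 (broad peaks, input as control); no versions are named for these tools, nor a genome build for ChIP-seq. For 3803 merged regions the authors deposited a signal per library, the coverage (pileup), and a local background (lambda). Scores, fold changes and p-values made by the authors, and 36 columns of 12 libraries outside the labels, were not used. Coverage is not a count of reads, so no count test was run. Enrichment was log2(pileup + 0.5) minus log2(lambda + 0.5), so that log2 differences understate the change of low values. limma 3.58.1 (R 4.3.3, trend) was fitted per mark over all regions and 3 conditions, with 6 libraries for H3K27ac and 5 each for Kcr and H3K36me2 (residual degrees of freedom 3, 2 and 2), and calls had a Benjamini-Hochberg adjusted p under 0.05. The script was tested on simulated data. Ratios for a condition are means of its libraries. Named in each comparison are the 4 largest changes each way among called members whose libraries do not overlap, and the extremes in C0. The members and lists were chosen with earlier results of these data known.

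The alternatives were the pileup alone, a pseudocount of 2, centring, equal medians and spreads, removal of low values, each library left out, a replicate block and members chosen on replicate 1 of C0. Halving H3K36me2 in C0 was added after seeing the data. No gene annotation of these regions was used.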

Additional observations from a re-analysis of the deposited data

Results flagged for a closer look

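In 2 members the differences of N1 and N2 from C0 were called in opposite directions, and N2 differed from N1 by its own test in limma. Kcr in chr13:892049-893213 was 1.77 and 1.61 in C0, 1.07 and 1.30 in N1 and 2.20 in N2, with a log2 difference of 0.89 between N2 and N1 (adjusted p = 4.53e-04), -0.51 for N1 against C0 and 0.37 for N2 against C0 (adjusted p = 0.0449). H3K36me2 in chr13:944256-945661 was 0.76 in C0, 0.53 and 0.50 in N1 and 1.10 and 1.00 in N2, with a log2 difference of 1.00 between N2 and N1 (adjusted p = 5.18e-09), -0.55 for N1 against C0 and 0.46 for N2 against C0. Each rests on a group whose libraries were identical, Kcr in N2 and H3K36me2 in C0.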

How the results depend on the processing

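The counts of members called, given as higher and lower, moved most with the scale. After centring they were 100 and 30 for H3K27ac in N2 against N1, 74 and 55 for Kcr in N1 against C0, 83 and 10 for Kcr in N2 against C0, 14 lower for Kcr in N2 against N1, and 12 lower for H3K36me2 in N2 against C0. With equal medians and spreads they were 89 and 33, 84 and 41, 79 and 34, and 44 lower in the same order for the acyl marks, 17 and 6 for H3K36me2 in N1 against C0 and 8 lower in N2 against C0. With the pileup alone Kcr gave 5 higher in N1 against C0, 27 and 72 in N2 against C0, and 245 and 0 in N2 against N1. H3K36me2 then gave 0 and 267 in N1 against C0, 6 and 204 in N2 against C0, and 187 and 5 in N2 against N1. Of all regions, 98.6% were lower on that scale in N1 against C0, and 86.2% in N2 against C0. With its C0 values halved, an alternative added after seeing the data, the pileup alone gave 8 lower in N1 against C0, and 186 and 0 in N2 against C0. Without low values, 47 members were higher for H3K36me2 in N2 against C0 and 63 in N2 against N1, with 198 tested. The median H3K27ac difference from C0 was 0.20 (pileup alone), 0.17 (centred) and 0.0856 (equal medians and spreads) in N1, and 0.13, 0.38 and 0.25 in N2.

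With 1 library left out, H3K36me2 gave 16 to 31 higher and 13 to 25 lower in N1 against C0, 14 to 19 lower in N2 against C0 and 20 to 32 lower in N2 against N1, and the median H3K27ac difference of N1 from C0 was -0.0217 to 0.0188. The other counts stayed within 1.5 times. Equal replicate numbers did not pair the libraries (r of the differences within pairs between conditions -0.0228 to 0.0344). With a replicate block, 14 members were lower for H3K36me2 in N2 against C0, and the other counts stayed within 1.5 times.

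For 56 named differences, 561 of 589 alternative values kept direction and call, 22 lost the call and 6 changed sign. With the pileup alone these were Kcr in N2 against N1 in chr21:775792-778752 (0.15) and H3K36me2 in N1 against C0 in chr10:696520-698854 (-0.0431), chr27:582239-584466 (-0.46), chr21:74947-77610 (-0.51) and chr29:460587-461617 (-0.26). With the pileup alone and C0 halved it was H3K36me2 in N2 against C0 in chr15:354132-359095 (0.0198). The cause was not tested.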
